A study of Mus musculus with 201 samples.

Results

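Gpnmb and Tyrp1 are the genes in which the mouse strain DBA/2J carries the alleles behind its hereditary glaucoma. They were followed here through every probe set (a group of short oligonucleotides that together report one transcript) annotated to either gene alone, which gave 2 of 18193 gene symbols and 5 of 45037 probe sets. Gpnmb had 2 probe sets, 1448303_at and 1439345_at, and Tyrp1 had 3, 1415862_at, 1415861_at and 1439409_x_at. RNA from pooled hippocampi of 100 mouse strains had been hybridised to 201 Affymetrix M430 2.0 arrays, usually with a pool of each sex per strain. The groups used here were the reciprocal F1 hybrids D2B6F1 and B6D2F1 (2 crosses, 6 arrays), DBA/2J (2 arrays, both of females) and C57BL/6J (3 arrays, 1 of females and 2 of males). They also included the BXD recombinant inbred strains, each of which fixed a different mixture of the C57BL/6J and DBA/2J genomes, as 39 later strains on 76 arrays and 29 earlier strains on 58 arrays. Of the earlier strains 23 date from the 1970s and 6 from the 1990s, on 46 and 12 arrays. The other groups were 4 wild-derived strains on 7 arrays, 13 classical inbred strains on 27 arrays with both parents among them, and the 13 CXB recombinant inbred strains on 27 arrays. The CXB strains descend from BALB/cByJ and C57BL/6ByJ. The labels name no treatment or transgene. Pools of 1 to 4 mice had a mean age of 41 to 196 days, with a median of 62 days, and some later BXD lines were not yet fully inbred, per the labels. A strain's female and male pools hold different mice. No label states this outright for arrays of the same sex, such as the 2 of DBA/2J, from pools labelled with 2 and 3 mice. Tests on arrays, as between single strains, therefore reflect variation among arrays of a strain. For arrays of the same sex it may not include variation among mice. Tests between sets of strains reflect variation among strain values.

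GPNMB is a transmembrane glycoprotein of melanosomes and lysosomes, made by pigment cells and by macrophages and reactive microglia. TYRP1 is a melanosomal enzyme of eumelanin synthesis and the product of the mouse brown coat colour locus. DBA/2J mice carry a premature stop codon in Gpnmb, linked to iris pigment dispersion, and the brown allele of Tyrp1, linked to iris stromal atrophy, and together they lead to raised eye pressure and loss of retinal ganglion cells. The Gpnmb stop allele is thought to have arisen in the DBA/2J stock after the first BXD lines had been founded, so that the later lines segregate it and the earliest are not known to. These points are background, and genotypes and eye measurements were not analysed here.

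The 250 bases before the annotated start of each gene in the reference are shown because they place both genes on the genome and differ in a letter pattern linked to pigment cells. The windows are RefSeq sequence of build GRCm38.p6 on the plus strand, at chr6:49036268-49036517 for Gpnmb and chr4:80833963-80834212 for Tyrp1. Capitals mark CATGTG, the core of the M box through which MITF acts in melanocytes.
Gpnmb: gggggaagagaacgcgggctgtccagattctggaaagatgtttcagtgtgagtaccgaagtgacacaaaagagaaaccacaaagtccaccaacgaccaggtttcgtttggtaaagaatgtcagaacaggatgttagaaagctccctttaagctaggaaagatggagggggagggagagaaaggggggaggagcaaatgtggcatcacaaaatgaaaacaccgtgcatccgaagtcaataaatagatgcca
Tyrp1: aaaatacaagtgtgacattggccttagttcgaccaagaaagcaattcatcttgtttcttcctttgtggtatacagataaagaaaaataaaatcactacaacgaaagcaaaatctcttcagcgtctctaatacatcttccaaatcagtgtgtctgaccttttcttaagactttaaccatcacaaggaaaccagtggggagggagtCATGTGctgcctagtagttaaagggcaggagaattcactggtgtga
Searched on both strands, CATGTG lay 46 bases before the Tyrp1 start and was not among the letters of the Gpnmb window, and CACGTG was in neither. Windows of the same length before 32851 annotated starts held CATGTG in 12.3% and CACGTG in 6.02%. These matches are a description of the reference, and the arrays say nothing of factors bound there.

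Values are PDNN scores, which summarise a probe set on a scale that resembles a logarithm of unstated base, so differences are stated in PDNN units and no fold changes are given. The levels of all 5 probe sets were low or middling for the array, on which the median probe set averaged 7.865 units. Over all arrays Gpnmb 1448303_at averaged 7.631 units (SD 0.0907, lowest array 7.434, highest 7.863), higher than 30.9% of probe sets. Gpnmb 1439345_at averaged 7.177 units (SD 0.0434), higher than 1.32% of probe sets. The Tyrp1 probe set 1415862_at averaged 7.866 units (SD 0.195, lowest array 7.417, highest 8.441), which was the middle of the array. The other Tyrp1 probe sets averaged 7.575 units for 1415861_at (SD 0.0544) and 7.385 units for 1439409_x_at (SD 0.0714). Different probe sets bind with different strength, so these levels do not rank the genes against each other.

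The probe sets also differed in how closely arrays of a strain repeated each other. The residual SD after strain, sex and batch was 0.0532 units for Gpnmb 1448303_at and 0.039 units for 1439345_at, both under the median of 0.0782 units over all probe sets. For Tyrp1 1415862_at it was 0.179 units, larger than that of 96.7% of probe sets. The other Tyrp1 probe sets had residual SDs of 0.0454 units (1415861_at) and 0.0565 units (1439409_x_at). The smallest difference between strains that could be seen was therefore larger in 1415862_at than in the other 4 probe sets.

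Markers of hippocampal granule and pyramidal neurons were high, with 11 of 11 listed genes measured and a list mean of 8.977 to 9.336 units on single arrays. The 23 measured melanosome and pigment genes had a list mean of 8.079 to 8.256 units on single arrays, above the median probe set, while the melanocyte genes Tyr (7.478 units), Dct (7.494), Pmel (7.565) and Mlana (7.369 units), singled out after their values were seen, averaged below it. Microarrays of this kind have no counting depth, and precision is set by the number of arrays. Later BXD arrays had a median of 50.2% of probe sets called present, and earlier ones 50.3%.

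In the parents, both Gpnmb probe sets read lower in DBA/2J than in C57BL/6J, while the adjusted p of each missed the threshold. Gpnmb 1448303_at read 7.570 and 7.536 units on the DBA/2J arrays, against 7.637, 7.739 and 7.720 units on the C57BL/6J arrays. The nearest C57BL/6J array was replicate 1, of females. With so few arrays, separate ranges are no test of a difference, and their share over all probe sets was not counted. With sex and batch in the model, DBA/2J lay below C57BL/6J by -0.147 ± 0.0509 units (SE, 95% confidence interval -0.248 to -0.0462), with an adjusted p of 0.0606 in limma. The second Gpnmb probe set, 1439345_at, read 7.121 and 7.095 units in DBA/2J, against 7.160, 7.247 and 7.217 units in C57BL/6J. The difference was -0.105 ± 0.0385 units (95% confidence interval -0.182 to -0.0288, limma adjusted p = 0.0843). Of the 5 probe sets 0 were called in this comparison (adjusted p under 0.05), against 7.24% of all probe sets, whose median difference was -0.0167 units.

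Batch 5 held 1 array of each parent, a DBA/2J female pool and a C57BL/6J male pool. Within it 1448303_at read 7.536 units in DBA/2J and 7.72 units in C57BL/6J, a difference of -0.184 units. For 1439345_at the DBA/2J array read 7.095 units and the C57BL/6J array 7.217 units, a difference of -0.122 units. The call for 1448303_at depended on 1 array: without C57BL/6J replicate 1 the difference was -0.175 units with an adjusted p of 0.0343, and without DBA/2J replicate 2 it was -0.133 units with an adjusted p of 0.308 in limma. Without the arrays with a high outlier share in the RMA summary it was -0.149 units (limma adjusted p = 0.0345), and 1439345_at without C57BL/6J replicate 1 had -0.128 units (limma adjusted p = 0.0421).

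Microglia and macrophages, which also make Gpnmb, had 18 of 19 listed genes measured, and these averaged 8.173 to 8.206 units on DBA/2J arrays and 8.123 to 8.214 units on C57BL/6J arrays, which overlap. In this list 1 gene was called higher in DBA/2J and 1 lower, against 4.61% and 2.63% of all probe sets. Cx3cr1, the fractalkine receptor of microglia, was higher by 0.355 ± 0.113 units (limma adjusted p = 0.0348). Fcrls, a microglial Fc receptor-like gene, was lower by -0.359 ± 0.078 units (limma adjusted p = 0.000738). In bulk tissue, fewer cells of a type and less RNA per cell cannot be told apart.

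**Figure D1:**
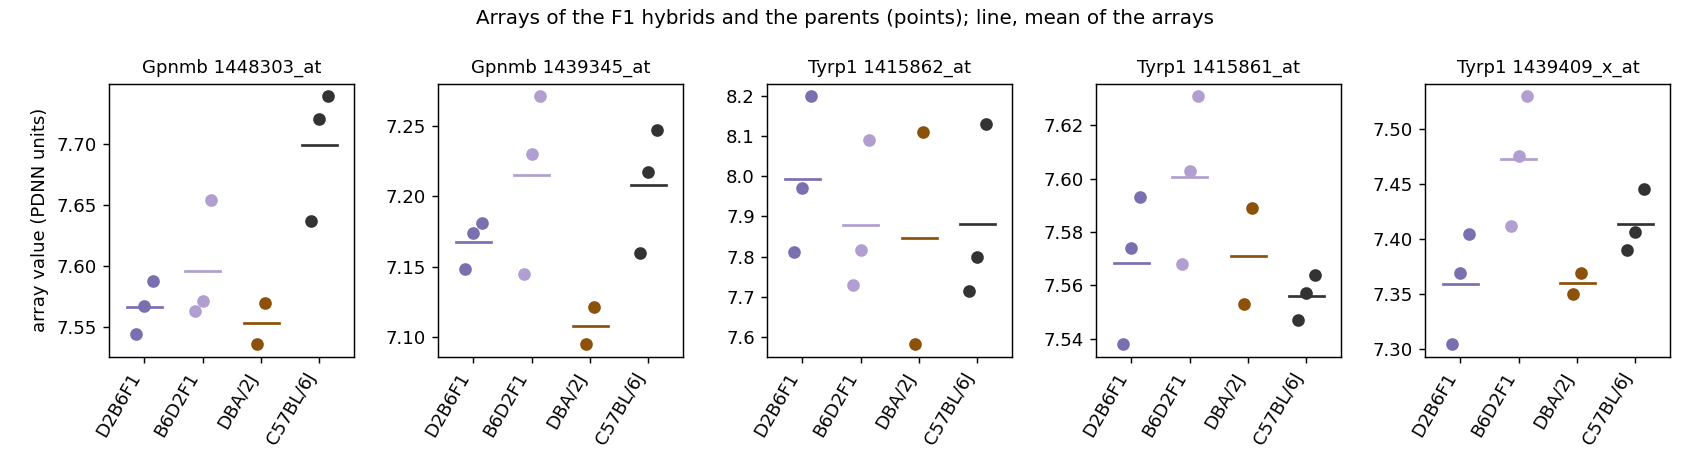
Array values (points, PDNN units on the vertical axis) of the 5 Gpnmb and Tyrp1 probe sets in D2B6F1, B6D2F1, DBA/2J and C57BL/6J, with a line at the mean of each group's arrays; 2 of the B6D2F1 points are technical duplicates of the same RNA. In Gpnmb 1448303_at the DBA/2J points, at 7.536 and 7.570 units, lie below the C57BL/6J points, at 7.637 to 7.739 units, and the Tyrp1 groups overlap in 1415862_at.

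The F1 hybrids, which carry 1 copy of each parental genome, lay near DBA/2J for Gpnmb 1448303_at. Their arrays read 7.567, 7.588 and 7.544 units in D2B6F1 and 7.563, 7.654 and 7.571 units in B6D2F1, where the last 2 are technical duplicates that were averaged. They overlapped the DBA/2J arrays, and 1 of the 6, B6D2F1 replicate 2, was above the lowest C57BL/6J array. The hybrids differed by 0.0242 ± 0.0474 units from DBA/2J (limma adjusted p = 0.976), by -0.123 ± 0.0401 units from C57BL/6J (limma adjusted p = 0.146), and by -0.0494 ± 0.0358 units from the mid-parent value (95% confidence interval -0.12 to 0.0216, limma adjusted p = 1). The shares of all probe sets called were 0.635%, 0.802% and 0%. All of these share the parental arrays, so the values are not independent of each other. For 1439345_at the hybrids lay above DBA/2J by 0.0812 ± 0.0359 units (limma adjusted p = 0.423) and differed from C57BL/6J by -0.024 ± 0.0303 units (limma adjusted p = 0.827). The reciprocal crosses D2B6F1 and B6D2F1 differed by -0.02 ± 0.0498 units in 1448303_at (limma adjusted p = 1, 0.00444% called). The file header of D2B6F1 replicate 1 names DBA/2J, and that array read 7.567 units, within the range of the other hybrid arrays.

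Among the 13 classical strains C57BL/6J had the highest strain value of Gpnmb 1448303_at, 7.715 units, and DBA/2J ranked 12th. Strain values are adjusted for sex and batch. Their standard error was 0.0316 units for C57BL/6J and 0.0388 units for DBA/2J, with a median of 0.0386 units in both later and earlier BXD strains. After C57BL/6J came BALB/cByJ (7.665 units), BALB/cJ (7.654), NOD/LtJ (7.633), A/J (7.629), 129S1/SvImJ (7.621), C3H/HeJ (7.601), NZO/HlLtJ (7.6), AKR/J (7.592), C57BL/6ByJ (7.59), KK/HIJ (7.587), DBA/2J (7.568) and LG/J (7.566 units). The largest step between neighbours was between C57BL/6J and BALB/cByJ, and no step exceeded 2 standard errors of a difference, so no neighbours are separated by their error. DBA/2J differed from the mean of the 12 others by -0.0534 ± 0.0408 units (95% confidence interval -0.134 to 0.0276, limma adjusted p = 0.687, 2.77% of all probe sets called). In 1439345_at DBA/2J had the lowest classical value, 7.107 units, and 129S1/SvImJ the highest, 7.253 units. There the difference from the 12 others was -0.0823 ± 0.0309 units (limma adjusted p = 0.164).

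Later and earlier BXD strains had close means in Gpnmb 1448303_at, and the later strains were spread more widely around theirs. The 39 later strains averaged 7.632 units (SD 0.113), with a lowest value of 7.478 in BXD44, a median of 7.636 and a highest value of 7.815 in BXD70. The 29 earlier strains averaged 7.633 units (SD 0.0614), with a lowest value of 7.524 in BXD2, a median of 7.633 and a highest value of 7.752 in BXD1. The later strains therefore reached both below and above the earlier ones. The difference of the means was -0.000631 ± 0.0202 units (95% confidence interval -0.0407 to 0.0394, limma adjusted p = 0.997, 0.504% of all probe sets called). Within the 7 batches it ran from -0.0668 to 0.0521 units and was above 0 in 4. The 1990s strains lay inside the range of the 1970s strains, with values of 7.562 (BXD40) to 7.669 units (BXD38) and an SD of 0.0429 units, against an SD of 0.0661 units in the 1970s strains. Later minus 1970s strains gave -0.00251 ± 0.0218 units (limma adjusted p = 0.987, 0.449% of all probe sets called).

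The mean absolute deviation from the set's own median was 0.0975 units in later strains and 0.0503 units in earlier strains, a difference of 0.0472 units. A two-sided permutation test over strains with 100000 resamples gave p = 0.00015, unadjusted, as 1 of 5 such tests, one per probe set. The same deviations tested in limma for every probe set gave an unadjusted p of 9.16e-05 and an adjusted p of 0.265, with 0% of probe sets called. Gpnmb 1448303_at had a larger difference than 99.6% of probe sets, over which the median difference was -0.0027 units. The width therefore differed in the test of this probe set and was not called once all probe sets were considered.

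The permutation p for 1448303_at was 0.00045 in the RMA summary, 0.00646 in the MAS5 summary, and 0.0013 against the 1970s strains alone. Leaving out each BXD strain in turn gave differences of 0.0451 to 0.0498 units. Sister strains that share a number, such as BXD48 and BXD48a, were counted as separate strains in the permutation. With sister strains averaged, the permutation p stayed under 0.05. The SD over single arrays was larger in later strains in 6 of 7 batches, at 0.072 to 0.137 units in later and 0.0517 to 0.0917 units in earlier strains. For Gpnmb 1439345_at this was also so in 6 of 7 batches. For the Tyrp1 probe sets it was 2 (1415862_at), 3 (1415861_at) and 5 of 7 (1439409_x_at), so the count does not set 1448303_at apart. The source of the animals moved with the set: 74 of 76 later arrays and 6 of 58 earlier arrays carry 1 source label, so source and set largely coincide, and its part in the result was not tested.

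The other 4 probe sets did not pass the test of width. Their differences were 0.00308 units for Gpnmb 1439345_at (permutation p = 0.57), 0.0291 units for Tyrp1 1415862_at (permutation p = 0.12), -0.0037 units for 1415861_at (permutation p = 0.52) and 0.0111 units for 1439409_x_at (permutation p = 0.25). For 1415862_at the value rested on BXD9, an earlier strain with 1 of its 2 arrays in the fit, without which it was 0.0401 units (permutation p = 0.0166). Their means also gave no call between later and earlier strains, and the difference with the smallest adjusted p was 0.0145 ± 0.00909 units in Tyrp1 1415861_at (limma adjusted p = 0.741).

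**Figure D2:**
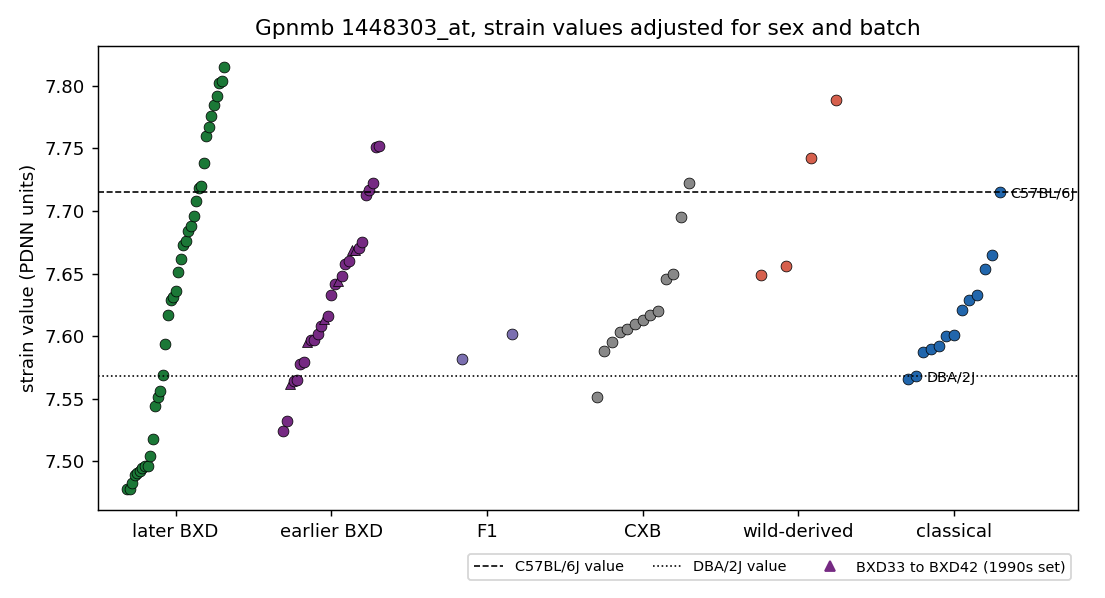
Strain values of Gpnmb 1448303_at (points, PDNN units on the vertical axis, adjusted for sex and batch) in later BXD, earlier BXD (triangles for the 1990s strains), F1, CXB, wild-derived and classical strains, with a dashed line at C57BL/6J and a dotted line at DBA/2J. The later BXD strains span 7.478 to 7.815 units and the earlier ones 7.524 to 7.752 units.

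Arrays of a strain repeated each other in the later set. The strain BXD70 read 7.743 and 7.848 units, BXD65 7.794 and 7.785 units, and BXD76 7.851 and 7.714 units. At the other end BXD62 read 7.479 and 7.471 units, BXD74 7.447 and 7.479 units, and BXD44 7.55 and 7.45 units. Over the 36 later strains with more than 1 array the median difference between arrays of a strain was 0.048 units, and in the 23 strains of the 1970s it was 0.041 units. Differences within strains were thus close in both sets, while the SD of strain values was 0.113 units in later and 0.0661 units in the 1970s strains.

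**Figure D3:**
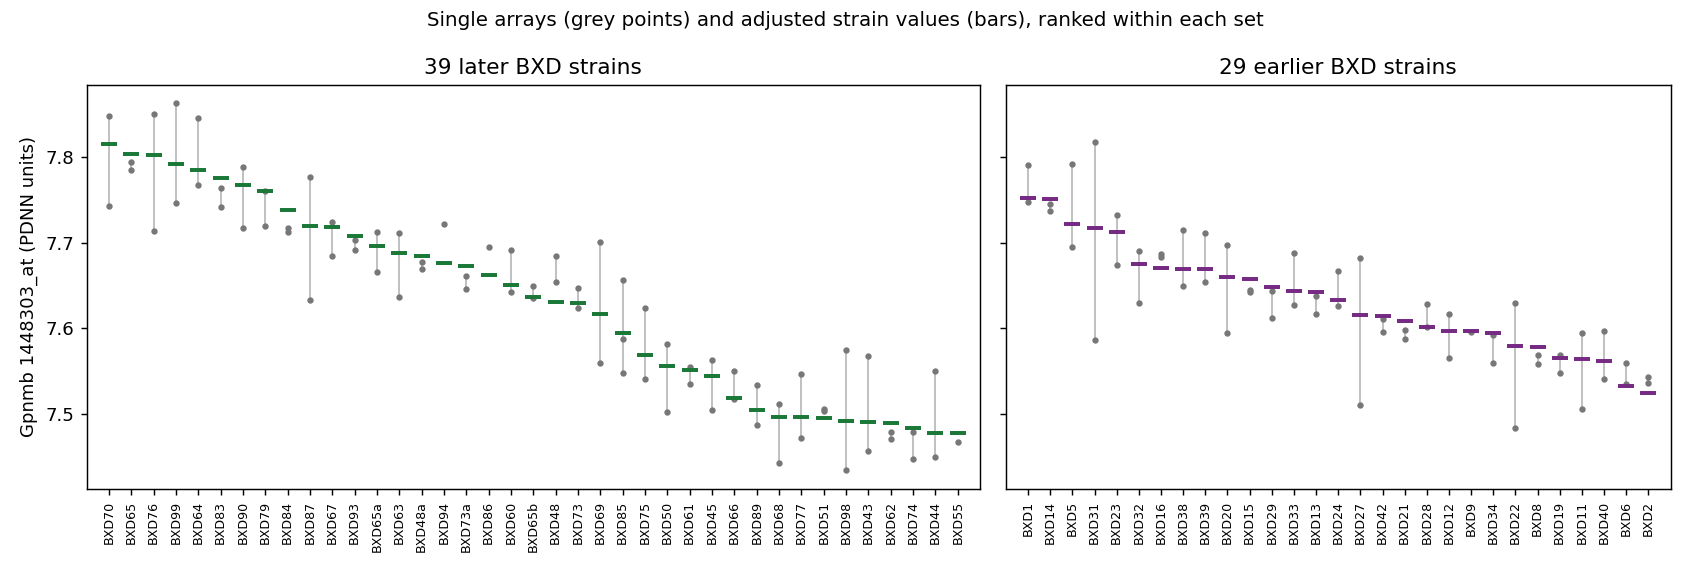
Gpnmb 1448303_at by strain, ranked within the later (left) and earlier (right) BXD sets, with strain values as short bars, single arrays as grey points and PDNN units on the vertical axis. The largest step between neighbouring strains is 0.026 units among later strains and 0.038 units among earlier strains.

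A strain effect, the test of whether arrays of a strain resemble each other more than arrays of other strains, was called in the later set. The intraclass correlation of 1448303_at was 0.811 over 39 later strains (limma F-test, adjusted p = 2.21e-07, 5.63% of all probe sets called), higher than that of 99.1% of probe sets. Over 29 earlier strains it was 0.304 (limma F-test, adjusted p = 0.668, 3.22% called), higher than that of 88.1% of probe sets. Over all 68 BXD strains it was 0.733 (limma F-test, adjusted p = 5.19e-10, 8.38% called). In the 13 CXB strains, whose parents do not include DBA/2J, it was -0.00365 (limma F-test, adjusted p = 0.888, 1.09% called), and 0.555 in the RMA summary (adjusted p = 0.5). The call in later strains and its absence in earlier ones do not by themselves show a difference between the sets, for which the test is that of the widths.

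Gpnmb 1439345_at gave no strain effect, with intraclass correlations of 0.0479 in later and 0.0825 in earlier strains. Its strain values correlated with those of 1448303_at at r = 0.537 over the 39 later strains and 0.6 over the 29 earlier strains, with both probe sets read on the same arrays. Deviations of arrays from their strain value, which hold no strain difference, correlated at 0.442 over 199 arrays.

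**Figure D4:**
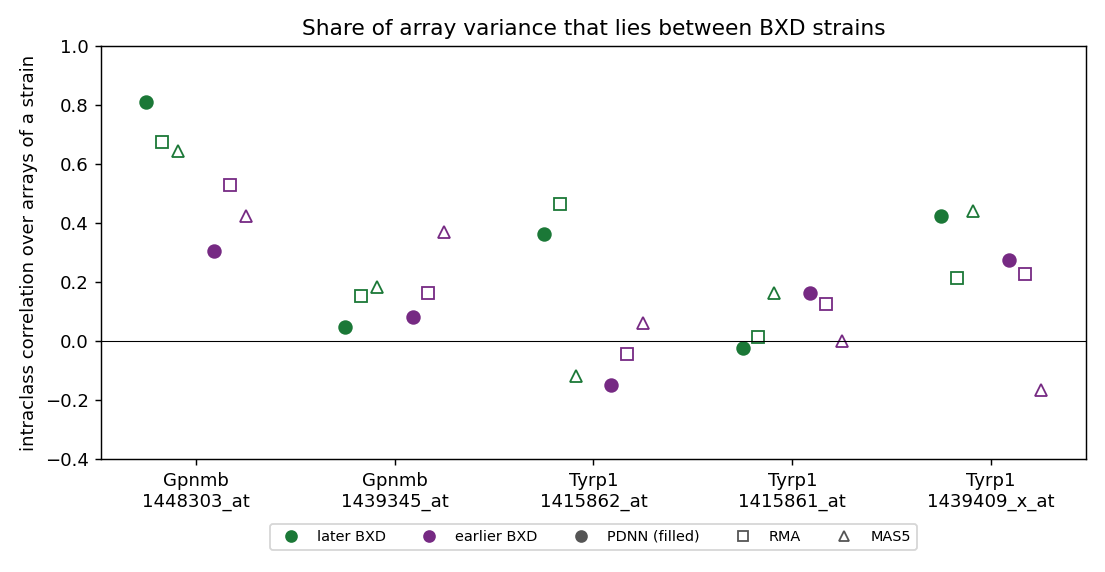
Intraclass correlation (vertical axis, no unit) of the 5 probe sets over later (green) and earlier (purple) BXD strains, from PDNN (filled), RMA (squares) and MAS5 (triangles) summaries. For Gpnmb 1448303_at the later strains have 0.811, 0.674 and 0.644 and the earlier strains 0.304, 0.529 and 0.423 in the PDNN, RMA and MAS5 summaries.

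Set against the parents, 14 of 39 later strains (35.9%) lay at or below the DBA/2J value of 7.568 units, 14 lay between the parents, and 11 (28.2%) lay at or above the C57BL/6J value of 7.715 units. Of the 29 earlier strains 5 (17.2%) lay at or below DBA/2J, 20 lay between and 4 (13.8%) lay at or above C57BL/6J. Counted on arrays, 11 of 36 later and 4 of 28 earlier strains with more than 1 array had none above the highest DBA/2J array, and 16 later and 8 earlier strains had none below the lowest C57BL/6J array. The counts carry the error of the parents, with standard errors of 0.0388 units for the DBA/2J value and 0.0316 units for the C57BL/6J value. The lowest later strains were BXD44 and BXD55 (7.478 units each), BXD74 (7.483), BXD62 (7.489) and BXD43 (7.491 units), and the highest were BXD70 (7.815), BXD65 (7.804), BXD76 (7.802), BXD99 (7.792) and BXD64 (7.785 units). Among sister strains that share a number, BXD48 had 7.631 and BXD48a 7.684 units, BXD73 had 7.629 and BXD73a 7.673 units, while BXD65, BXD65a and BXD65b had 7.804, 7.696 and 7.636 units.

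Outside the BXD panel the CXB strains spanned 7.551 to 7.722 units (SD 0.0451, n = 13) and the classical strains 7.566 to 7.715 units (SD 0.0423, n = 13). The wild-derived strains had 7.789 (PWK/PhJ), 7.742 (PWD/PhJ), 7.656 (CAST/EiJ) and 7.649 units (WSB/EiJ). Their mean lay above that of the classical strains by 0.092 ± 0.0471 units (limma adjusted p = 0.138, 25% of all probe sets called), with 2 of 4 above every classical strain. The file header of PWD/PhJ replicate 1, which read 7.762 units, names PWK/PhJ. Sex and age gave no call in any of the 5 probe sets: in 1448303_at males differed from females by -0.0011 ± 0.00828 units (0.118% of all probe sets called), and the slope was 0.00609 ± 0.00328 units per 10 days of age (0.00222% called).

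Tyrp1 did not differ between the parents beyond its spread. Tyrp1 1415862_at read 7.583 and 8.109 units in DBA/2J, against 8.129, 7.799 and 7.714 units in C57BL/6J. The ranges overlapped, and the DBA/2J arrays lay further apart than the C57BL/6J arrays. The difference was 0.0179 ± 0.165 units with a 95% confidence interval of -0.31 to 0.346 units (limma adjusted p = 0.98), so differences of that size in either direction were not detectable. Tyrp1 1415861_at read 7.553 and 7.589 units in DBA/2J, against 7.564, 7.557 and 7.547 units in C57BL/6J, and the difference was 0.00887 ± 0.0441 units (95% confidence interval -0.0786 to 0.0963, limma adjusted p = 0.96). Tyrp1 1439409_x_at read 7.369 and 7.35 units in DBA/2J, against 7.406, 7.39 and 7.445 units in C57BL/6J. The adjusted difference was -0.0313 ± 0.0539 units (limma adjusted p = 0.865), against -0.095 units within batch 5.

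In the F1 hybrids 1415862_at read 7.812, 7.971 and 8.199 units in D2B6F1 and 8.09, 7.816 and 7.729 units in B6D2F1, within or near the parental range. Against the mid-parent value the hybrids differed by 0.0565 ± 0.116 units in 1415862_at, 0.027 ± 0.031 units in 1415861_at and 0.0124 ± 0.0379 units in 1439409_x_at, each with a limma adjusted p of 1. None of the Tyrp1 probe sets was called in any contrast of the hybrids.

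Across strains Tyrp1 1415862_at had the widest range of the 5 probe sets and the largest residual SD. The later BXD strains ran from 7.614 (BXD45) to 8.15 units (BXD64) and the earlier strains from 7.604 (BXD8) to 8.26 units (BXD9, with 1 of its 2 arrays in the fit). Arrays of a strain differed by a median of 0.135 units in later strains and 0.23 units in the 1970s strains, with a largest difference of 0.704 units among the 1970s strains. The strain effect was not called, with an intraclass correlation of 0.142 over all BXD strains (limma F-test, adjusted p = 0.382), 0.364 in later strains (adjusted p = 0.0893) and -0.149 in earlier strains (adjusted p = 0.937). In the RMA summary it was called in later strains, with an intraclass correlation of 0.466 and a limma adjusted p of 0.0307.

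Tyrp1 1439409_x_at was called for a strain effect over all 68 BXD strains, with an intraclass correlation of 0.387 (limma F-test, adjusted p = 0.0189). The call was not made in the RMA summary (0.184, limma adjusted p = 0.434) or the MAS5 summary (0.233, limma adjusted p = 0.246), or without the batch term (0.345, limma adjusted p = 0.0527). Its strain values ran from 7.208 (BXD65) to 7.498 units (BXD99) in later strains and from 7.271 (BXD29) to 7.483 units (BXD40) in earlier strains. The 3 Tyrp1 probe sets followed each other weakly over the 100 strains, with no correlation of strain values above 0.286.

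The wild-derived strains were higher than the classical strains in 2 of the 3 Tyrp1 probe sets in the PDNN summary, and neither call held under every alternative tried. Tyrp1 1415861_at had strain values of 7.664 (PWD/PhJ), 7.66 (CAST/EiJ), 7.654 (PWK/PhJ) and 7.587 units (WSB/EiJ), against 7.522 (NZO/HlLtJ) to 7.634 units (C3H/HeJ) in classical strains. 3 of the 4 lay above every classical strain, and the difference of means was 0.0709 ± 0.0212 units (limma adjusted p = 0.0104). Without CAST/EiJ it was 0.0647 units (limma adjusted p = 0.0585) and without PWD/PhJ 0.0632 units (limma adjusted p = 0.0645). The call was also lost in RMA (adjusted p = 0.0602), in MAS5 (0.155), after quantile normalization (0.0435 units, adjusted p = 0.176) and without arrays of high outlier share (adjusted p = 0.0833), all in limma. Tyrp1 1415862_at had values of 8.043 (PWD/PhJ), 8.042 (WSB/EiJ), 8 (CAST/EiJ) and 7.687 units (PWK/PhJ), against 7.552 (129S1/SvImJ) to 8.06 units (KK/HIJ), with overlap. Its difference was 0.202 ± 0.0793 units with a limma adjusted p of 0.0497, at the threshold, and it was lost when any of 12 of the 17 strains was left out. The file header of PWD/PhJ replicate 1 names PWK/PhJ. Without arrays whose header disagrees the difference was 0.0849 units in 1415861_at (limma adjusted p = 0.00276) and 0.189 units in 1415862_at (limma adjusted p = 0.0628). Calls in this comparison covered 25% of all probe sets, and sequence differences under the probes of wild-derived strains were not tested. The third, 1439409_x_at, differed by 0.0169 ± 0.0329 units (limma adjusted p = 0.741).

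The genes most like Gpnmb across later strains lay largely on its own chromosome. Of the 10 genes whose strain values had the highest absolute correlation with 1448303_at over the 39 later strains, 6 were on chromosome 6, which holds 5.5% of probe sets. They were Zfp775 (r = 0.756), Tra2a (-0.747, probe set 1442886_at), Repin1 (0.692), Zfp467 (-0.642), Zfp783 (-0.602) and Zfp398 (-0.598). Tra2a encodes a splicing factor, and Repin1 and the Zfp genes encode zinc finger proteins. The others were Dnajc17 (0.601), Mbp (0.592), which encodes myelin basic protein, Cntn5 (-0.589) and Batf3 (0.584).

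Over the 29 earlier strains the same genes had weaker correlations in 8 of 10 cases, such as 0.382 for Zfp775, -0.45 for Tra2a and 0.245 for Repin1, but -0.7 for Zfp467 and -0.628 for Zfp783. The sign was the same in 9 of 10, with Dnajc17 the exception (-0.204). The absolute correlation exceeded by 1% of probe sets was 0.438 over later strains and 0.57 over earlier strains. All strains share the platform and the batches, and the genes were chosen on the later strains, so the comparison with the earlier strains is no test. In these same later strains 6 of the 10 were called for a strain effect, against 5.63% of all probe sets, which is no test either. Of the 10, 4 were called between DBA/2J and C57BL/6J, against 7.24% of all probe sets. Tra2a 1442886_at was higher in DBA/2J by 1.44 units (limma adjusted p = 3.59e-09), Zfp398 by 0.634 units (limma adjusted p = 3.61e-07) and Zfp467 by 0.204 units (limma adjusted p = 0.0211), and Mbp was lower by -0.464 units (limma adjusted p = 0.0242).

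The 10 genes most like Tyrp1 1415862_at were Klf17, Lpcat1, Fbxw22, Slc25a17, Myo1d, Lasp1, Hmmr, Ttll10, Hesx1 and Aldh2, spread over 7 chromosomes with 2 on chromosome 4, where Tyrp1 lies. Their correlations were 0.957 to 0.971 over later and 0.871 to 0.967 over earlier strains, and 1% of all probe sets exceeded an absolute correlation of 0.904 with it. None of the 10 was called between DBA/2J and C57BL/6J or for a strain effect in later strains. Of all probe sets 7.24% and 5.63% were called, so 0 of 10 lies near these shares. For deviations of arrays from their strain value, the 10 most alike genes were picked anew, on these deviations. With 1415862_at they correlated at 0.948 to 0.961 over 199 arrays, and Lpcat1 and Hesx1 (0.959 each) were again among them. With Gpnmb 1448303_at the genes picked in this way had absolute correlations of 0.545 to 0.613. The variation of 1415862_at was thus shared with other probe sets from array to array.

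**Figure D5:**
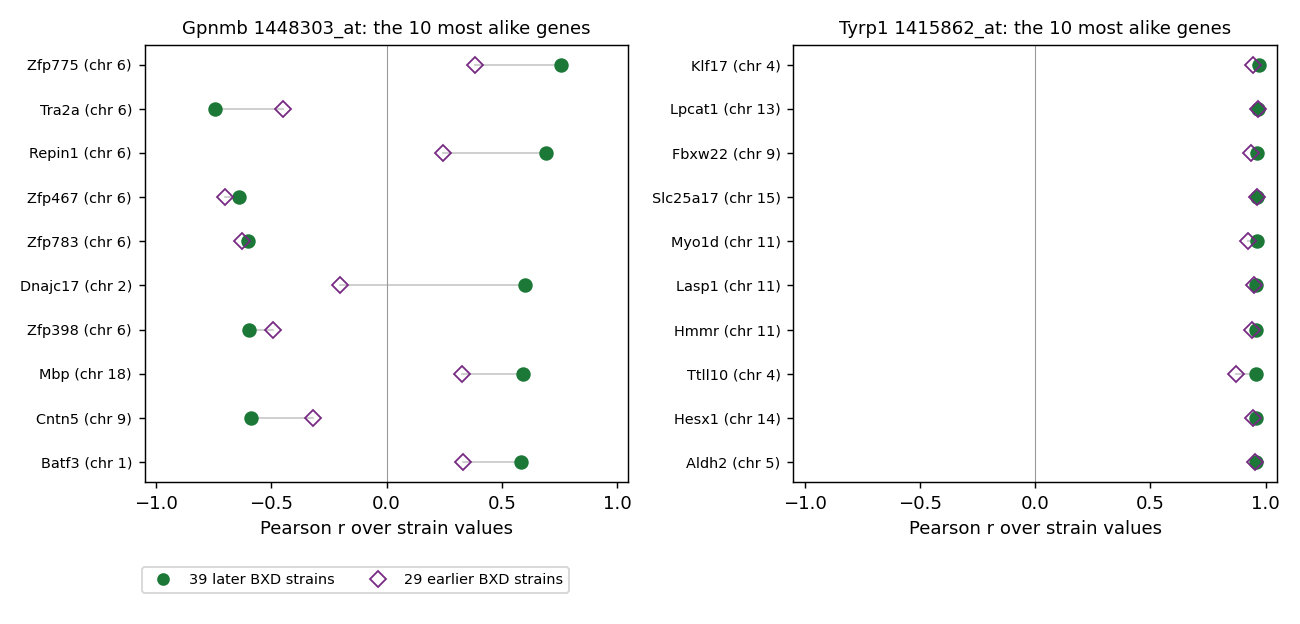
Correlation of strain values (horizontal axis, Pearson's r) with Gpnmb 1448303_at and with Tyrp1 1415862_at for the 10 genes most like each over later strains, with green dots for 39 later strains and purple diamonds for 29 earlier strains. The genes like Gpnmb have absolute values of 0.584 to 0.756 over later strains, and those like Tyrp1 0.957 to 0.971.

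The genes next to Gpnmb and Tyrp1 in the order of protein-coding genes mostly gave no difference between the parents. Of the 20 neighbours of Gpnmb 17 were measured, and 2 were higher in DBA/2J, Mpp6 by 0.738 units (limma adjusted p = 4.68e-05) and Gsdme, a gasdermin that forms membrane pores, by 1.15 units (limma adjusted p = 0.00781). None was lower, and of all probe sets 4.61% were higher and 2.63% lower. Tra2a is the third gene beyond Gpnmb, and its brightest probe set, 1454725_at, differed by 0.0886 units (limma adjusted p = 0.847), unlike its probe set 1442886_at. Of the 20 neighbours of Tyrp1 16 were measured, and Zdhhc21, a palmitoyltransferase gene, and Snapc3, a subunit of a small nuclear RNA activating complex, were higher in DBA/2J by 1.05 and 0.35 units (limma adjusted p = 0.000611 and 0.00494). A strain effect in later strains was called for 1 neighbour of each, a share close to the 5.63% of all probe sets: Tmem176a (intraclass correlation 0.454, limma adjusted p = 0.0378) and Snapc3 (0.6, limma adjusted p = 0.000984). In earlier strains Snapc3 was called too (limma adjusted p = 0.0022), against 3.22% of all probe sets.

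Among 24 listed melanosome and pigment genes other than these, 23 were measured, 0 were higher and 1 was lower in DBA/2J than in C57BL/6J, against 4.61% and 2.63% of all probe sets. The gene was Sox10, a transcription factor of pigment cells and oligodendrocytes, with -0.349 ± 0.0918 units (limma adjusted p = 0.00706). The list's median difference was -0.0584 units and that of all probe sets -0.0167 units. Between later and earlier BXD strains 0 of 23 were called, against 0.504% of all probe sets. A strain effect in later strains was called for 2 of 23, against 5.63% of all probe sets, and these were Myo5a, the motor gene of the dilute coat colour locus that differs between the parents, with an intraclass correlation of 0.647 (limma adjusted p = 0.000138), and Oca2, a melanosomal transporter gene, with 0.545 (limma adjusted p = 0.00816). Myo5a was called in earlier strains too, with 0.557 (limma adjusted p = 0.0179), against 3.22% of all probe sets.

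Of 23 genes linked to glaucoma in humans or mice 20 were measured, and 2 were higher in DBA/2J, the cholesterol transporter gene Abca1 by 0.302 ± 0.0845 units (limma adjusted p = 0.0122) and Gas7 by 2.18 ± 0.596 units (limma adjusted p = 0.00989). None was lower, and of all probe sets 4.61% were higher and 2.63% lower. The list's median difference was 0.0097 units. In later against earlier BXD strains 0 were higher and 1 was lower, against 0.306% and 0.198% of all probe sets. It was Tek, the angiopoietin receptor gene, with -0.0849 units (limma adjusted p = 0.00345).

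Because Gpnmb is also a gene of macrophages and reactive microglia, their markers are set beside it. Of 18 measured microglia and macrophage genes 0 were higher and 3 were lower in later than in earlier BXD strains, against 0.306% and 0.198% of all probe sets: P2ry12 (-0.198 units), Mrc1 (-0.0959 units) and Cd163 (-0.0385 units). The median array of the list was at 8.1535 units in later strains, 8.2505 in the 1970s strains and 8.244 units in the 1990s strains. A strain effect in later strains was called for 5 of 18 (C1qa, C1qb, C1qc, Fcrls and Tyrobp) and in earlier strains for Fcrls, against 5.63% and 3.22% of all probe sets. The list mean correlated with Gpnmb 1448303_at at 0.115 over the 39 later and 0.227 over the 29 earlier strains.

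Of 14 measured genes of activated microglia, 1 was higher in DBA/2J and 0 were lower, against 4.61% and 2.63% of all probe sets. It was Lpl, lipoprotein lipase, with 0.791 units (limma adjusted p = 2.27e-06). Strain effects in later strains were called for Lpl, Igf1 and Lgals3, 3 of 14 against 5.63% of all probe sets, and the list correlated with Gpnmb at 0.0494 in later and -0.122 in earlier strains. Genes of the choroid plexus, which lies beside the hippocampus, were higher in later strains in 7 of 10 cases, against 0.306% of all probe sets. Their mean correlated with Gpnmb at 0.0778 in later and -0.115 in earlier strains. The melanosome list correlated with Gpnmb at -0.427 in later and -0.164 in earlier strains and with Tyrp1 1415862_at at 0.756 and 0.618. With 1415862_at the list of thalamus and retina genes, a tissue check, correlated at 0.519 and 0.669, and the hippocampal neuron list at -0.422 and -0.528. The absolute correlation with 1415862_at exceeded by 1% of probe sets was 0.904 over later and 0.888 over earlier strains. The part of these cell types in the levels of either gene was not tested beyond these values.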

How the data were processed

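The authors deposited a PDNN score per probe set and array, and RMA and MAS5 scores of the same arrays. Scaling to mean 8 and SD 2 is stated in the labels, yet deposited PDNN columns showed means between 8.064 and 8.1 with SDs between 0.6332 and 0.8007, and they were used unchanged. No software version is given in the sources used here. Groups came from the labels, which disagreed with the file headers of 7 arrays. Of 197 columns of RMA values, 4 matched arrays other than those they are named for, among them the 3 of C57BL/6J, which matched BALB/cJ arrays.

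Strain, sex and batch were fitted to 45037 probe sets with limma 3.58.1 in R 4.3.3, with data.table (version 1.17.8), and figures were drawn in Python 3.11.15 with matplotlib 3.10.9. The 1 array of mixed sex was left out and a technical duplicate averaged, which gave 199 columns and 92 residual degrees of freedom. Sets of strains were compared in a second limma fit over strain values, and strain effects by F-tests. All tests were two-sided, with Benjamini-Hochberg adjustment over all probe sets and a threshold of 0.05. Widths were compared by permuting strains, with unadjusted p-values, since an adjustment over the members alone is not given. Limma over all probe sets was added for widths after seeing the data. The pipeline was tested on simulated data. Alternatives were the RMA and MAS5 values, the series value table, a fit with age, a fit without batch, and quantile normalization. Others were averaging sister strains and leaving out arrays (by RMA outlier share, age, header or in turn) or strains.

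Named genes were the members, the listed markers through the probe set with the highest mean, the 10 protein-coding genes on each side, and the 10 most correlated genes over later strains. Members and lists were chosen with earlier results of these data known. The border between the 1970s and 1990s strains follows the usual numbering of the lines. Promoter sequences are from RefSeq, and 2 of 2 genes matched.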

Additional observations from a re-analysis of the deposited data

Results flagged for a closer look

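In Gpnmb 1448303_at the spread of strain values was wider in later than in earlier BXD strains by 0.0472 units, with mean absolute deviations of 0.0975 units in later and 0.0503 units in earlier strains. The permutation test over strains gave p = 0.00015, and limma over all probe sets gave an adjusted p of 0.265.

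The 5 probe sets were examined for a value far from the others among the 4 wild-derived strains, the 6 BXD strains of the 1990s and the 5 F1 columns, which makes 15 tests by Dixon's ratio. In 3 of them a value stood apart, and chance marks about 1 in 20. All 3 were in Tyrp1 among the 4 wild-derived strains, where PWK/PhJ was low in 1415862_at (7.687 units, ratio 0.88), WSB/EiJ was low in 1415861_at (7.587 units, ratio 0.862) and CAST/EiJ, on 1 array, was high in 1439409_x_at (7.523 units, ratio 0.902).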

How the results depend on the processing

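Of 2580 values recomputed under alternatives for 85 results, 2539 kept their side of the threshold, 30 fell short of it, 7 newly passed it and 4 moved by more than the spread. Of the 2539, 2368 also kept their sign and 171 changed it, with 0 of these called before or after. Among them, in Gpnmb 1448303_at, were later minus earlier strains (0.0387 units in RMA), the hybrids minus mid-parent (0.0278 units in RMA), D2B6F1 minus B6D2F1 (0.0804 units in RMA, 0.312 in MAS5) and DBA/2J minus the 12 others (0.0434 units in MAS5). No called value changed sign. In Gpnmb 1448303_at the strain effect in later strains was called under each alternative tried. DBA/2J minus C57BL/6J was -0.149 units without arrays of high outlier share (limma adjusted p = 0.0345), and -0.175 to -0.133 units when each array was left out. The RMA values of all comparisons with C57BL/6J or the mid-parent rest on C57BL/6J columns that match BALB/cJ arrays. Later minus earlier strains was -0.0668 units within batch 3. The difference in width was 0.0472 units in limma, with an adjusted p of 0.265. In Tyrp1 the parental difference within batch 5 was 0.395 units in 1415862_at and -0.095 in 1439409_x_at, and later minus earlier strains was 0.08 units in 1439409_x_at within batch 3. Wild-derived minus classical strains in 1415862_at missed the threshold in limma at 0.301 units (RMA), 0.289 (RMA without 4 columns), 0.186 (quantile normalization), 0.187 (no batch term), 0.107 (outlier arrays out), 0.2 (older pools out) and 0.189 (disagreeing headers out), and ran from 0.169 to 0.287 when each strain was left out. Its strain effect in later strains passed at 0.466 in RMA. Its difference in width passed at 0.037 units in strains with 2 or more arrays (permutation p = 0.0289), and ran from 0.025 to 0.0401 when each strain was left out. In 1415861_at wild-derived minus classical strains missed the threshold at 0.133 units (RMA), 0.565 (MAS5), 0.0435 (quantile normalization) and 0.0697 (outlier arrays out). The causes were not tested.

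Counts of calls over all probe sets moved by more than 1.5 times as follows. DBA/2J minus C57BL/6J gave 1480 calls with no batch term and 2011 in RMA, against 3260. The 12 other classical strains gave 618 with no batch term, 673 in MAS5 and 806 in RMA without 4 columns, against 1249. F1 minus C57BL/6J gave 172 with no batch term, 679 in RMA and 562 with the duplicate apart, against 361, and F1 minus DBA/2J gave 106 with no batch term, against 286. The mid-parent comparison gave up to 167, in RMA, against 0. These RMA counts with C57BL/6J or the mid-parent rest on columns that match BALB/cJ arrays, so they do not show the effect of processing alone. Later minus earlier strains gave 95 in MAS5 and 149 in RMA, against 227. Later minus 1970s strains gave 82 in MAS5, 83 in RMA and 104 with outlier arrays out, against 202. Strain effects in MAS5 numbered 2458 over all BXD strains (against 3773), 1459 in later (against 2534), 811 in earlier (against 1448) and 212 in CXB strains (against 492, and 172 with outlier arrays out). Wild-derived minus classical strains gave 4971 in MAS5, 6211 in RMA, 6247 in RMA without 4 columns and 4802 with outlier arrays out, against 11237. The age slope gave 0 to 3 against 1, and the reciprocal crosses gave 4 with the duplicate apart, against 2.

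A minimum mean of 8 units left 0 of the 5 probe sets and gave no value. No paired analysis was possible because replicate numbers only name the arrays within a strain and do not link strains. Arrays carry no counts, and levels near the dim end of the array limit what 1439345_at can show.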
